A study of Mus musculus with 21 samples.

Results

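Propylene glycol (PG), a small diol used as the solvent of e-cigarette liquids, was instilled into the airways of mice, and RNA of the whole lung at the higher dose was compared with RNA of saline lungs across all genes. The comparison was chosen from the sample titles and holds 6 of the 21 libraries of the series, 3 from the PG 1100 group (animals 27, 28 and 30) and 3 from the saline group that the labels name as the PG control (animals 6, 8 and 10). Each library was made from 1 C57BL/6 mouse. Every animal received 50 µL into the trachea once a day for 14 days. On day 15 the animals were killed, their airways were lavaged and the lung was collected. The sample labels give the dose of 1100 in mg/kg, while the series text gives the same number in mg/mL, so the number stands here without a unit. Sex and age are not given in the sources used here. The remaining libraries come from a lower PG dose (826, animals 22, 23 and 25), 10% ethanol and vitamin E acetate, and of these only PG 826 is set beside the comparison.

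The lung is built of airways, lined mainly by secretory club cells and ciliated cells, and of alveoli, where flat type I cells and surfactant-producing type II cells face a dense bed of capillaries. Macrophages in the alveoli and in the tissue between them take up inhaled material and digest it in lysosomes. Fibroblasts lay down the collagen and elastic fibres that hold the structure together, and after injury they make more of both. PG itself is oxidised in the body by alcohol and aldehyde dehydrogenases, in part to lactate.

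The genes that rose after PG 1100 included many of collagen and elastic fibres, of macrophages and their lysosomes, of surfactant-producing cells and of mitosis. For mitosis the count went from 17 to 2 when PG 1100 animal 28 was left out. Those that fell included many of endothelium and some of club and ciliated cells and of enzymes that metabolise foreign compounds. Of 14727 gene symbols tested among 23238 in the files, 602 rose (4.09%) and 475 fell (3.23%), together 7.31%, with calls made at an adjusted p below 0.05 in edgeR's quasi-likelihood test with Benjamini-Hochberg adjustment. The median log2 fold change was 1.01 among genes that rose and -0.85 among genes that fell, and 477 of the called genes differed by at least 1 on the log2 scale. The 3 PG 1100 animals all lay above the 3 saline animals for 547 of the genes that rose, against 10.1% of all tested genes, and all below for 439 of those that fell, against 9.69%. Levels are in CPM, a count relative to the size of its library after scaling by TMM factors. They are given in the order of saline animals 6, 8 and 10 and then PG 1100 animals 27, 28 and 30. Fold changes are on the log2 scale ± SE, positive where PG 1100 was higher. With library totals in place of TMM the median gene shifted by 0.15, and 81.1% of calls were higher (1054 against 246 lower) in place of 55.9%, so directions are stated relative to the TMM scale.

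**Figure D1:**
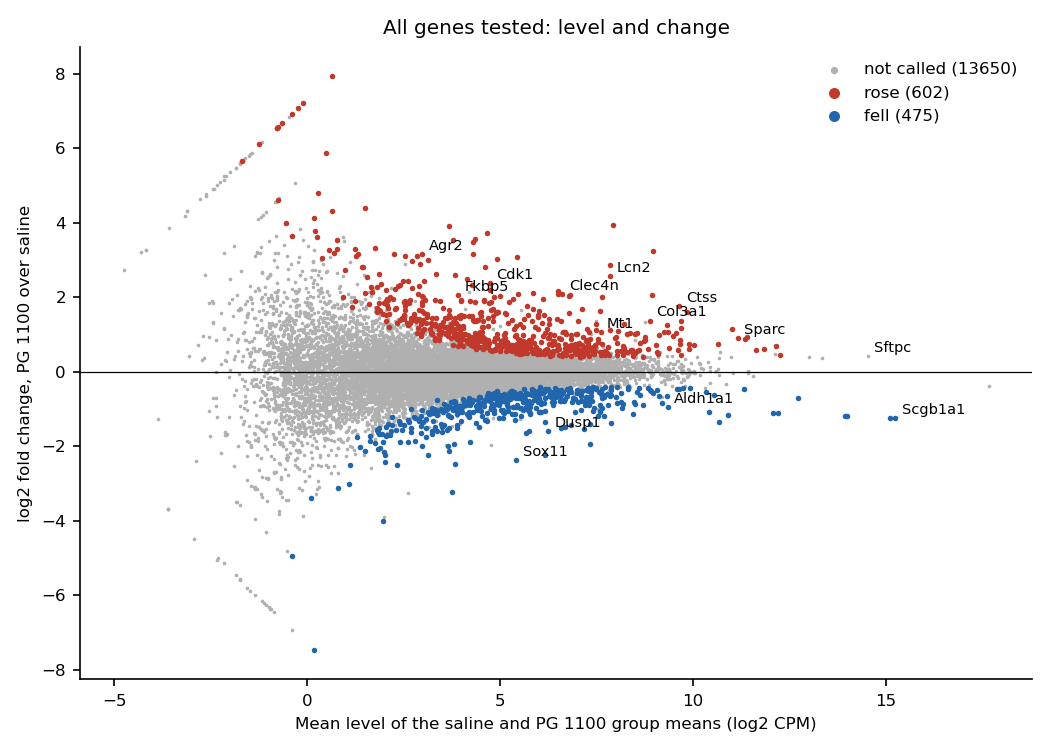
Each point is 1 of the 14727 genes tested, with the log2 of the mean of the saline and PG 1100 group means in CPM on the x axis and the log2 fold change of PG 1100 over saline on the y axis. The 602 genes that rose are red and the 475 that fell are blue. The oblique streaks at the left are genes with no count in 1 of the groups, for which the fitted fold change is no measure of size.

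Library totals were 8778028 to 9749070 counts after PG 1100 and 9698442 to 11273751 after saline, so 5 CPM stands for 41.1 to 51.7 counts. All 12 defining markers of lung tissue checked, among them Sftpc, Ager, Scgb1a1 and Pecam1, were detected in every library. Haemoglobin transcripts took 6.49%, 13.8% and 9.56% of counts in the saline animals and 4.54% to 5.53% after PG 1100, and ribosomal Rn45s took 21.6% to 22.0% and 16.4% to 20.8%. PG 1100 animal 28 stood apart: it was the highest of the 3 for 368 of the 602 genes that rose and the lowest for 281 of the 475 that fell. Without it 326 genes rose and 221 fell. The spread was estimated over all 21 libraries. With only the 6 libraries compared in the fit, 259 rose and 185 fell, and with the 9 saline and PG libraries 368 rose and 304 fell, called the 6-library and 9-library fits below. Where a count of list members moved by over 1.5 times in another fit, that count is given with it, apart from counts of 3 or fewer that changed by 1 or 2. Of 57 list counts of 1 to 3 members, 50 moved by over 1.5 times in at least 1 other fit. These are levels in whole tissue, in which fewer cells of a type and less RNA per cell cannot be told apart. The lung was collected after lavage, so airway and alveolar cells removed by it, macrophages among them, are not measured. Reads shared between close relatives, such as the haemoglobin, Ces1, Gstm, Fmo, metallothionein and H2 genes, may have been split between them.

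**Figure D2:**
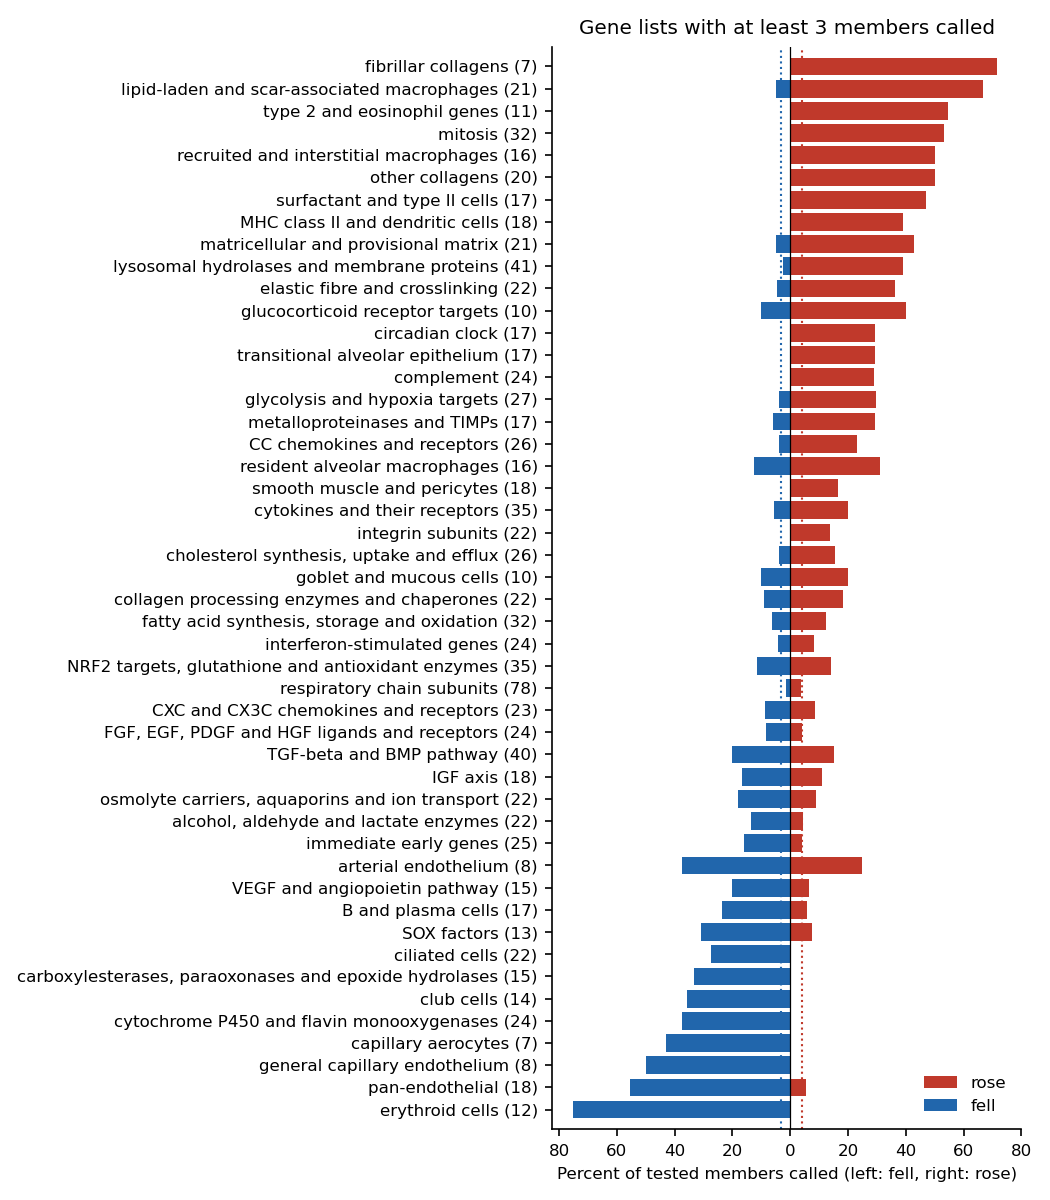
Bars give the percent of tested members of each gene list that rose (red, right) or fell (blue, left) after PG 1100, for the lists of at least 7 tested members with at least 3 called, with the number tested in parentheses. The dotted lines mark the 4.09% and 3.23% of all tested genes that rose and fell. Fibrillar collagens stand at the top and erythroid genes at the bottom.

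Fibrillar collagens, the rope-like proteins that carry tension in the lung wall, were higher. Of 7 tested, 5 rose (median of the list 1.37, against 0.01 over all tested genes) and the other 2 did not pass. Col3a1, the chain of type III collagen (chromosome 1, 45311538 to 45349706), was at 350.4, 249 and 187 CPM after saline and at 736, 707 and 595 CPM after PG 1100 (log2 fold change 1.37 ± 0.16, adjusted p = 2.02e-07). Every PG 1100 animal lay above every saline animal. Col5a2, a chain of the type V collagen that starts fibrils (chromosome 1, 45374321 to 45503282), was at 46.8, 36.8 and 26.6 CPM and 111, 115 and 88.5 CPM (log2 fold change 1.51 ± 0.19, adjusted p = 8.17e-07), again without overlap. Col5a1 (1.61 ± 0.27) and Col1a2 (1.24 ± 0.19) rose as well.

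Of 20 other collagens, 10 rose and none fell (median 0.72). They included the type IV chains of basement membranes, Col4a1 (1.03 ± 0.17) and Col4a2 (0.87 ± 0.18), and the 3 type VI chains, Col6a1 (0.97 ± 0.19), Col6a2 (0.73 ± 0.15) and Col6a3 (1.29 ± 0.19). Col8a1, a short-chain collagen of vessel walls, was at 13.7, 7.06 and 9.54 CPM after saline and 67.7, 29.3 and 17.4 CPM after PG 1100 (log2 fold change 1.91 ± 0.37, adjusted p = 0.00103). Animal 27 had the highest level and animal 30 the lowest, still above the saline range. Col18a1, the source of endostatin, rose by 1.24 ± 0.26.

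Enzymes that finish collagen moved in both directions: of 22 tested, 4 rose and 2 fell (median 0.29), with 2 rising in the 6-library fit. Adamts2, the protease that trims procollagen ends (chromosome 11, 50602084 to 50807573), was at 25.2, 15.6 and 9.54 CPM and 83.4, 73.5 and 57.01 CPM (log2 fold change 2.09 ± 0.23, adjusted p = 2.91e-07), with no overlap. P4ha1, a catalytic subunit of prolyl 4-hydroxylase, fell from 65.9, 81.8 and 56.2 CPM to 36.6, 42.1 and 39.6 CPM (log2 fold change -0.78 ± 0.18, adjusted p = 0.00315). In the same enzyme family P4ha3 rose (3.15 ± 0.72), with 12.8, 11.1 and 1.89 CPM in the 3 PG 1100 animals, so that animal 30 stood close to the saline values of 1.48, 0.365 and 0.973 CPM. P4ha3 did not pass by limma-voom (0.084), in a range of 1.14e-06 to 0.084 over the alternative fits. Such ranges are given for the 20 genes reported with values that lost a call in another fit. For 14 of them, P4ha3 among them, the low end came from the fit with no low-count filter and describes that fit alone.

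Elastic fibre genes followed: of 22 tested, 8 rose and 1 fell (median 0.48). Eln, elastin (chromosome 5, 134702593 to 134747323), was at 253, 175 and 139 CPM after saline and 1069, 716 and 597 CPM after PG 1100 (log2 fold change 2.07 ± 0.23, adjusted p = 2.86e-06). Saline animal 6 was the highest of its group for Eln, Col3a1 and Col1a2 alike, and still lay below all 3 PG 1100 animals. Fbn1, the fibrillin of microfibrils (1.14 ± 0.21), Mfap5, a microfibril protein (1.03 ± 0.16), and Ltbp2, a latent TGF-beta binding protein family member (1.44 ± 0.26), rose. The crosslinking enzyme Loxl2 was at 17.8, 14.1 and 12.5 CPM and 57.9, 36.5 and 29.5 CPM (log2 fold change 1.48 ± 0.22, adjusted p = 1.34e-05), without overlap.

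Matricellular and provisional matrix proteins, which appear in tissue under repair, rose in 9 of 21 and fell in 1 (median 0.84), with 5 rising in the 6-library fit. Sparc, a collagen-binding secreted protein (chromosome 11, 55394500 to 55423183), was at 1819.8, 1676 and 1297 CPM after saline and 3304, 2959.7 and 2736 CPM after PG 1100 (log2 fold change 0.91 ± 0.13, adjusted p = 1.28e-05). Thbs1, thrombospondin, was at 16.4, 14.1 and 23.4 CPM and 74.8, 35.99 and 47.9 CPM (log2 fold change 1.56 ± 0.29, adjusted p = 0.000889). Vcan, the proteoglycan versican, was at 8.58, 4.87 and 5.74 CPM and 10.7, 18.3 and 23.2 CPM (log2 fold change 1.43 ± 0.32, adjusted p = 0.00263), where animal 27 came nearest to the saline range. For these 3 genes the groups did not overlap.

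Some matrix-degrading enzymes and the inhibitor Timp1 rose as well: of 17 metalloproteinases and TIMPs tested, 5 rose and 1 fell (median 0.58). The other inhibitors tested, Timp2 (-0.11 ± 0.16), Timp3 (-0.08 ± 0.14) and Timp4 (-0.86 ± 0.88), did not pass. Mmp2, a gelatinase of fibroblasts (chromosome 8, 92827291 to 92853420), was at 34.9, 27.03 and 20.04 CPM after saline and 106, 92.4 and 66.7 CPM after PG 1100 (log2 fold change 1.69 ± 0.21, adjusted p = 3.06e-06). Mmp14, the membrane enzyme that activates it (chromosome 14, 54431612 to 54445364), was at 40.4, 14.9 and 24.5 CPM and 93.05, 64.7 and 56.8 CPM (log2 fold change 1.42 ± 0.22, adjusted p = 7.29e-05). Mmp19 was at 19.5, 18.6 and 11.8 CPM and 36.04, 92.7 and 62.9 CPM (log2 fold change 1.94 ± 0.24, adjusted p = 1.5e-06), highest in animal 28. The inhibitor Timp1 was at 8.88, 11.2 and 8.85 CPM and 35.4, 55.04 and 42.5 CPM (log2 fold change 2.20 ± 0.51, adjusted p = 0.0156). Its groups were far apart, yet Timp1 did not pass without saline animal 6 (0.0592), without saline animal 10 (0.063) and without PG 1100 animal 28 (0.0714), in a range of 2.35e-21 to 0.0714. The low end is from the fit with no low-count filter. Among 22 integrin subunits, the receptors that hold cells to matrix, 3 rose and none fell. Itga7, the laminin-binding chain of muscle, was at 7.40, 4.38 and 6.52 CPM and 18.3, 19.05 and 20.9 CPM (log2 fold change 1.66 ± 0.25, adjusted p = 1.67e-05), without overlap.

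Insulin-like growth factor 1 drives growth and is held in the circulation and in tissue by binding proteins. In the IGF list of 18 tested genes 2 rose and 3 fell (median -0.15). Igf1, the growth factor itself (chromosome 10, 87858265 to 87937042), was at 41.4, 28.98 and 32.01 CPM after saline and 146, 163 and 131 CPM after PG 1100 (log2 fold change 2.10 ± 0.15, adjusted p = 6.08e-12), the smallest adjusted p of all genes tested. Its groups lay far apart, and it passed in all 14 alternative fits. Igfbp7, the most abundant binding protein of the list, was at 509, 491 and 378 CPM and 565, 790.5 and 570.3 CPM (log2 fold change 0.48 ± 0.14, adjusted p = 0.021) and rose without overlap, a call not made in the 6-library fit (0.227), in the 9-library fit (0.122), without saline animal 10 (0.166) and without PG 1100 animal 28 (0.265) (range 0.00406 to 0.265). The 3 genes that fell are binding proteins too. Igfbp6 was at 80.7, 96.9 and 96.7 CPM after saline and 44.3, 35.4 and 49.9 CPM after PG 1100 (log2 fold change -1.08 ± 0.17, adjusted p = 5.17e-05). Igfbp5 was at 230.2, 258 and 309 CPM and 129.7, 96.5 and 179 CPM (log2 fold change -0.98 ± 0.21, adjusted p = 0.00315). Both of these fell without overlap. Igfbp3 was at 37.7, 31.05 and 19.3 CPM and 6.38, 2.66 and 14.9 CPM (log2 fold change -1.88 ± 0.49, adjusted p = 0.0252), and did not pass in the 6-library fit (0.0774), in the 9-library fit (0.119), without saline animal 6 (0.0872), without saline animal 8 (0.0677), without PG 1100 animal 27 (0.09) and without PG 1100 animal 28 (0.064), in a range of 4.08e-12 to 0.119. Igf1r, the receptor, was at 136, 82.7 and 92.1 CPM and 97.3, 50.7 and 74.04 CPM and did not pass (log2 fold change -0.49 ± 0.18, adjusted p = 0.0931).

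**Figure D3:**
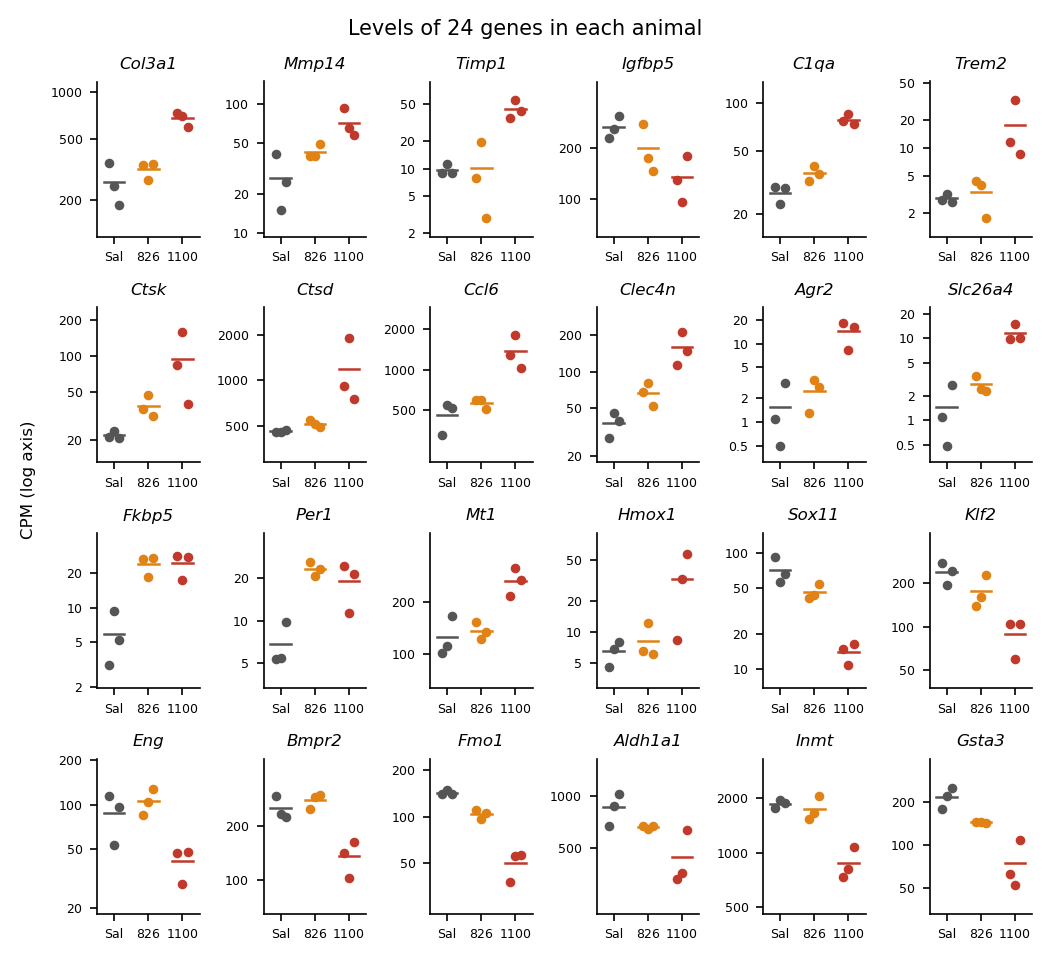
Levels of 24 genes in CPM on a log axis in the saline animals (grey), the PG 826 animals (orange) and the PG 1100 animals (red), 1 point per animal, with a line at the mean of each group of 3. Col3a1, C1qa and Mt1 were higher in all 3 PG 1100 animals than in any saline animal, and Sox11, Fmo1 and Inmt were lower in all 3.

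In the TGF-beta and BMP pathway, which steers matrix deposition and vessel stability, 4 of the 8 genes that fell encode receptors or co-receptors. Of 40 tested, 6 rose and 8 fell (median -0.06), with 2 rising without saline animal 8 or 10 or PG 1100 animal 28 and 3 in the 6-library or 9-library fit or by limma-voom. Bmpr2, the type II BMP receptor (chromosome 1, 59763400 to 59879014), was at 295, 235 and 226 CPM after saline and 142, 103 and 163 CPM after PG 1100 (log2 fold change -0.89 ± 0.14, adjusted p = 5.49e-05). Of the other receptors, Acvrl1, the type I receptor ALK1 of endothelium, was at 236, 150.4 and 189 CPM and 124, 70.98 and 114 CPM (log2 fold change -0.90 ± 0.16, adjusted p = 0.000182). The co-receptors Eng (-1.09 ± 0.21) and Tgfbr3 (-1.30 ± 0.21) fell too. The inhibitory Smad6 was at 108, 65.7 and 58.3 CPM and 30.05, 15.6 and 27.9 CPM (log2 fold change -1.65 ± 0.29, adjusted p = 0.00102), and the decoy receptor Bambi at 39.4, 46.1 and 51.2 CPM and 20.97, 21.3 and 22.5 CPM (log2 fold change -1.08 ± 0.19, adjusted p = 0.000224). For all of these the PG 1100 animals lay below the saline animals. Fstl1, a secreted follistatin-like protein that binds these ligands, rose from 124, 118 and 103 CPM to 278, 246 and 220.0 CPM (log2 fold change 1.11 ± 0.16, adjusted p = 5.31e-06). Not all receptors fell: Tgfbr2, the type II TGF-beta receptor, was at 79.8, 63.2 and 59.8 CPM and 122, 101 and 68.9 CPM and rose (log2 fold change 0.53 ± 0.16, adjusted p = 0.0425), with overlap between the groups, a call not made by limma-voom (0.0714), in the 6-library fit (0.204), in the 9-library fit (0.121), without saline animal 8 (0.129), without saline animal 10 (0.175), without PG 1100 animal 27 (0.254) and without PG 1100 animal 28 (0.136) (range 0.00323 to 0.254).

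Other growth factor lists held few calls in number. The share that fell still exceeded the 3.23% of all tested genes in each list but Wnt. In the FGF, EGF, PDGF and HGF list 1 of 24 rose and 2 fell, with Fgf1 at 158, 180.1 and 161 CPM and 115, 108 and 123 CPM (log2 fold change -0.53 ± 0.13, adjusted p = 0.00693), which did not pass in the 6-library fit (0.103) (range 0.000473 to 0.103). In the Wnt list 1 of 35 rose, the inhibitor Sfrp1 (log2 fold change 0.71 ± 0.18, adjusted p = 0.00948), which did not pass in the 6-library fit (0.0507) and without saline animal 10 (0.0591) (range 0.00225 to 0.0591). In the Notch list 2 of 18 fell (11.1%), and in the VEGF and angiopoietin list 3 of 15 fell (20%) and 1 rose. The 2 Notch genes are counted again in the arterial list below. The VEGF list genes that fell, apart from Vegfa, are counted again in the pan-endothelial list. Vegfa, the main growth factor of vessels, was at 317, 228 and 221 CPM after saline and 173, 128 and 179.8 CPM after PG 1100 (log2 fold change -0.67 ± 0.17, adjusted p = 0.00943), and did not pass with library totals alone (0.0662), in the 6-library fit (0.0659), without saline animal 6 (0.0871) and without PG 1100 animal 28 (0.102) (range 0.000293 to 0.102).

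Many endothelial genes fell. Of 18 pan-endothelial genes 10 fell and 1 rose (median -0.58), with 5 falling without PG 1100 animal 28 and 6 in the 6-library fit. Cldn5, the claudin of endothelial tight junctions (chromosome 16, 18776847 to 18778262), was at 122, 98.01 and 101 CPM after saline and 65.6, 45.96 and 71.03 CPM after PG 1100 (log2 fold change -0.81 ± 0.16, adjusted p = 0.000675). Ramp2, the partner of the adrenomedullin receptor, was at 313, 241 and 238 CPM and 119.8, 97.8 and 157 CPM (log2 fold change -1.08 ± 0.16, adjusted p = 1.02e-05). The groups did not overlap for either gene, and animal 28 was lowest for both. Pecam1, the adhesion molecule of all endothelium, was at 477, 438 and 421 CPM and 289, 257 and 372 CPM (log2 fold change -0.54 ± 0.14, adjusted p = 0.00939). Pecam1 did not pass with library totals alone (0.056), in the 6-library fit (0.134), in the 9-library fit (0.077) and without PG 1100 animal 28 (0.102), in a range of 0.00127 to 0.134.

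Genes of both capillary cell types fell. Of 8 general capillary genes 4 fell and none rose, with 2 falling without PG 1100 animal 27 or in the 6-library or 9-library fit. Of 7 genes of aerocytes, the large gas-exchange capillary cells, 3 fell and none rose. Tmem100, a membrane protein of capillaries that acts downstream of BMP signals (chromosome 11, 90030348 to 90036508), was at 507, 461 and 465 CPM and 121, 194 and 336 CPM (log2 fold change -1.14 ± 0.22, adjusted p = 0.00185), lowest in animal 27. Ptprb, the vascular phosphatase VE-PTP, was at 560.1, 393 and 408 CPM and 327, 186 and 268 CPM (log2 fold change -0.80 ± 0.16, adjusted p = 0.000782). Of aerocyte genes, Ednrb, an endothelin receptor, was at 35.3, 33.7 and 23.7 CPM and 10.8, 19.05 and 15.03 CPM (log2 fold change -1.05 ± 0.22, adjusted p = 0.00177), and Fibin fell by 1.31 ± 0.21. In the arterial list 3 of 8 fell and 2 rose. Its Efnb2, the ephrin of arteries, was at 74.7, 50.8 and 68.7 CPM and 25.7, 20.6 and 38.7 CPM (log2 fold change -1.19 ± 0.18, adjusted p = 2.76e-05). Dll4, an arterial Notch ligand, was at 45.6, 23.4 and 28.3 CPM and 11.5, 7.20 and 16.1 CPM (log2 fold change -1.48 ± 0.27, adjusted p = 0.000294), without overlap. None of 6 venous genes passed in the edgeR fit over all libraries or in DESeq2, with 0 higher and 1 lower at an unadjusted p below 0.05. Of 7 lymphatic genes 1 rose, the chemokine Ccl21a, which has close relatives (log2 fold change 1.06 ± 0.16, adjusted p = 1.54e-05).

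Other genes that fell include several known from endothelium. Clec14a, an endothelial lectin (chromosome 12, 58264720 to 58269290), was at 167, 196 and 191 CPM after saline and 85.4, 88.9 and 98.4 CPM after PG 1100 (log2 fold change -1.02 ± 0.13, adjusted p = 1.26e-06). Tspan7, a tetraspanin, was at 289, 247 and 248 CPM and 129, 90.5 and 125 CPM (log2 fold change -1.19 ± 0.16, adjusted p = 5.08e-06). Klf2, a flow-induced transcription factor of vessels (chromosome 8, 72319033 to 72321656), was at 275, 192 and 241 CPM and 103, 60.2 and 105 CPM (log2 fold change -1.40 ± 0.21, adjusted p = 6.67e-05). Myzap, a cell junction protein, was at 162, 168 and 129 CPM and 50.2, 46.95 and 65.8 CPM (log2 fold change -1.50 ± 0.15, adjusted p = 4.06e-08). In all 4 genes every PG 1100 animal lay below every saline animal. Cd300lg, a sialomucin of capillaries, fell by 1.76 ± 0.33, and Gata2, a factor of endothelium and mast cells, fell by 1.13 ± 0.17. Sox11, a transcription factor of embryonic tissue and nerve cells (chromosome 12, 27334264 to 27342574), had the smallest adjusted p of all falls. It was at 93.2, 56.6 and 66.4 CPM and 14.8, 10.9 and 16.3 CPM (log2 fold change -2.37 ± 0.19, adjusted p = 9.38e-11). In the SOX list 4 of 13 fell and 1 rose, with 2 falling without saline animal 6 or PG 1100 animal 28 or 30 or in the 9-library fit. Sox13 fell by 0.91 ± 0.21.

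Alveolar fibroblasts hold much of the lipid-rich wall tissue. Of 11 of their genes tested, 2 fell and none rose. Inmt, a methyltransferase abundant in these cells (chromosome 6, 55170626 to 55175043), was at 1758, 1943 and 1880.3 CPM after saline and 736, 810.0 and 1069 CPM after PG 1100 (log2 fold change -1.09 ± 0.14, adjusted p = 2.18e-06), with no overlap. Pdgfra, the receptor that marks lung fibroblasts, was at 99.4, 77.7 and 68.6 CPM and 64.8, 56.6 and 69.4 CPM and did not pass (log2 fold change -0.36 ± 0.19, adjusted p = 0.275). Of 18 smooth muscle and pericyte genes 3 rose and none fell (median 0.29), with 6 rising with no low-count filter. Acta2, smooth muscle actin and a mark of myofibroblasts, was at 295, 197 and 281 CPM and 521, 379 and 492 CPM (log2 fold change 0.85 ± 0.26, adjusted p = 0.0603), which did not pass although the groups did not overlap.

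**Figure D4:**
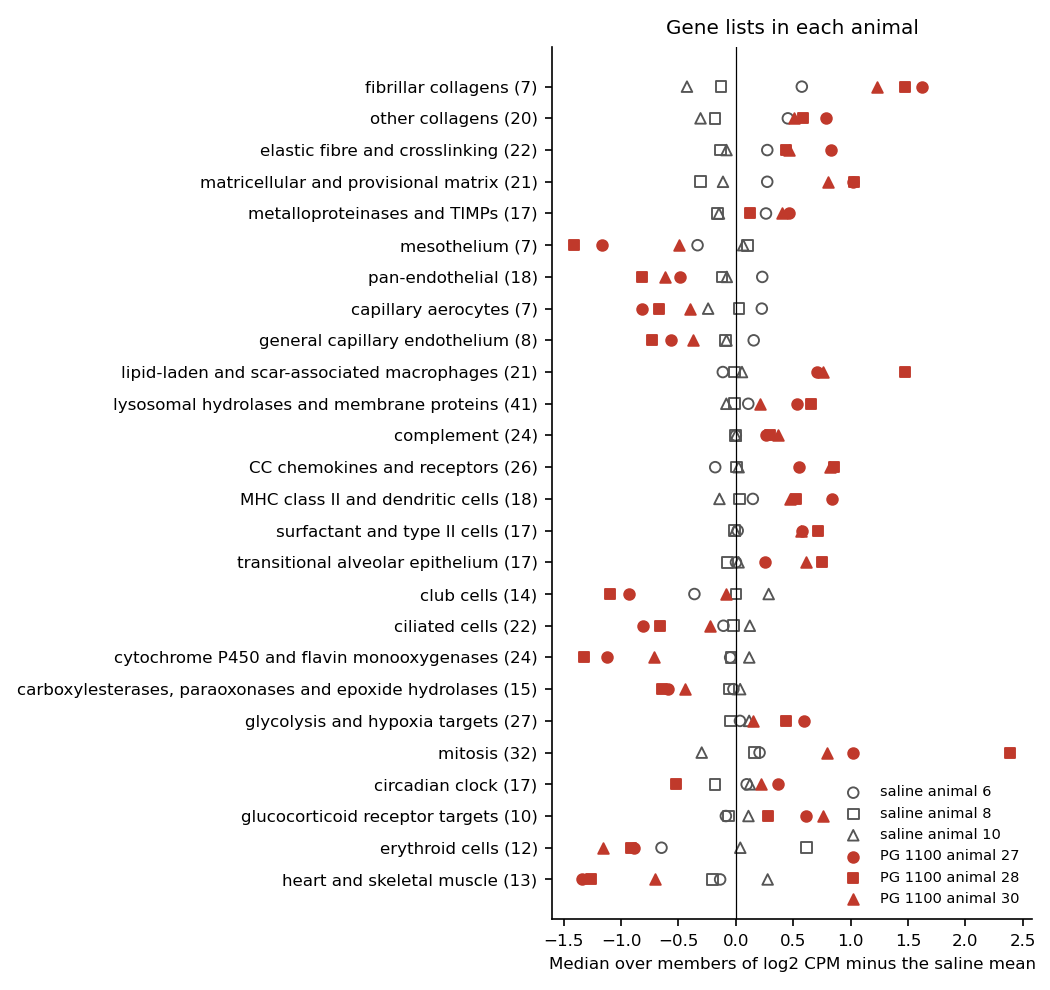
For each gene list, points give the median over its members of log2 CPM minus the mean of the 3 saline animals, for each saline animal (open grey) and each PG 1100 animal (filled red), with the number of tested members in parentheses. The PG 1100 animals lie right of the saline animals for fibrillar collagens, lipid-laden macrophage genes and mitosis, and left of them for capillary genes and cytochrome P450. Animal 28 lies far right of the others for mitosis.

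Many macrophage genes rose, with the largest share among those of macrophages that take up lipid and debris. Of 21 genes of lipid-laden and scar-associated macrophages, 14 rose and 1 fell (median 1.05). Trem2, the lipid-sensing receptor of such cells (chromosome 17, 48346401 to 48354147), was at 2.76, 3.17 and 2.63 CPM after saline and 11.6, 32.4 and 8.68 CPM after PG 1100 (log2 fold change 2.62 ± 0.54, adjusted p = 0.00315). Cd68, a lysosomal glycoprotein of macrophages, was at 30.2, 37.1 and 28.5 CPM and 68.8, 150.2 and 75.6 CPM (log2 fold change 1.62 ± 0.22, adjusted p = 1.32e-05). Lgals3, galectin-3, was at 219.8, 263 and 257 CPM and 401, 653 and 477 CPM (log2 fold change 1.05 ± 0.15, adjusted p = 9.07e-06). The groups did not overlap in these 3 genes, and animal 28 was highest in each.

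Of 16 genes of recruited and interstitial macrophages, 8 rose and none fell (median 0.72). The 3 chains of complement C1q, made mainly by tissue macrophages, rose together. C1qa (chromosome 4, 136895917 to 136898803) was at 29.6, 22.9 and 28.996 CPM and 76.8, 85.2 and 73.3 CPM (log2 fold change 1.53 ± 0.17, adjusted p = 1.04e-07), C1qc at 30.3, 32.6 and 32.5 CPM and 66.5, 108 and 69.9 CPM (log2 fold change 1.36 ± 0.20, adjusted p = 1.51e-05), and C1qb at 31.7, 27.9 and 38.7 CPM and 57.97, 132 and 90.7 CPM (log2 fold change 1.51 ± 0.25, adjusted p = 0.000273). Of 16 genes of resident alveolar macrophages 5 rose and 2 fell (median 0.44), with 8 rising with no low-count filter. The 2 that fell, Krt79 and Fabp1, did not pass in the 6-library fit. Among the 9 not called were Siglecf (0.39 ± 0.30), Pparg (0.15 ± 0.27), Ear1 (-0.30 ± 0.30) and Ear2 (0.10 ± 0.27). F7, coagulation factor VII, which alveolar macrophages make, was at 13.1, 9.50 and 16.2 CPM and 32.4, 65.9 and 25.2 CPM (log2 fold change 1.66 ± 0.26, adjusted p = 4.66e-05). Ctsk, the collagen-cleaving cathepsin K, was at 21.02, 23.5 and 20.7 CPM and 83.3, 159 and 39.97 CPM (log2 fold change 2.11 ± 0.37, adjusted p = 0.00207), about the same in the 3 saline animals and widely spread after PG 1100. Macrophage receptors outside these lists rose as well. Clec4n, the fungal sugar receptor dectin-2 (chromosome 6, 123229843 to 123247021), was at 28.1, 45.3 and 39.1 CPM and 114, 214 and 149.6 CPM (log2 fold change 2.09 ± 0.20, adjusted p = 1.02e-07). Cd84, a SLAM family receptor, was at 13.02, 12.8 and 14.5 CPM and 36.1, 57.6 and 35.6 CPM (log2 fold change 1.68 ± 0.19, adjusted p = 2.08e-07).

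Some lysosomal genes rose: of 41 hydrolases and membrane proteins tested, 16 rose and 1 fell (median 0.48), with 9 rising in the 6-library fit and 10 without PG 1100 animal 28. Ctss, cathepsin S (chromosome 3, 95526786 to 95556403), was at 272, 453 and 379 CPM after saline and 905, 1992 and 830.4 CPM after PG 1100 (log2 fold change 1.76 ± 0.27, adjusted p = 0.000347). Ctsd, cathepsin D (chromosome 7, 142375911 to 142388038), was at 457, 458 and 471 CPM and 923, 1913 and 750.1 CPM (log2 fold change 1.37 ± 0.21, adjusted p = 9.69e-05). The saline animals lay within a narrow range for Ctsd, and animal 28 was far above the other PG 1100 animals. Npc2, which moves cholesterol out of lysosomes, was at 1519, 2019 and 2027 CPM and 3187, 4264 and 3249 CPM (log2 fold change 0.94 ± 0.14, adjusted p = 1.67e-05). Ctsh (1.08 ± 0.14), Ctsz (0.98 ± 0.16), Ctsb (1.09 ± 0.19) and Scarb2 (0.80 ± 0.16) rose without overlap. Of 17 subunits of the vacuolar ATPase, the pump that acidifies lysosomes, 2 rose and none fell, with 5 rising without PG 1100 animal 27 and 8 with library totals alone. Its Atp6v0d2 is a macrophage and osteoclast subunit and rose by 1.37 ± 0.22.

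The letters CACGTG are the core of the element that the lysosomal regulator TFEB binds, and the promoters of this list were searched for them. RefSeq windows (GRCm38.p6) from 250 bases before to 50 after the annotated start were found for 31 of the 41 genes. The letters, which read the same on both strands, were in the windows of 10 of them (32.3%). They were in 8.09% of all 27025 genes with a window and in 11.1% of the 11073 tested genes with one. Of the list's genes that rose 12 had a window and 2 of those held the letters, and of those that were not called 8 of 18 did. The GENCODE span of Ctsd given above reaches 142388038, beyond the RefSeq start used here, so the stretch shown lies inside that span. The 150 bases before the RefSeq start of Ctsd, one of the 2, at chr7:142387828-142387977 (minus strand), are shown for the place of the letters, in capitals.
Ctsd: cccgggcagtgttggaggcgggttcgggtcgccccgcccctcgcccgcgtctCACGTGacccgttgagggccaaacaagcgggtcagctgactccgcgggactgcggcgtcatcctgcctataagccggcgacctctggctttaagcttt

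Some complement and chemokine genes rose, though most did not pass. Of 24 complement genes 7 rose and none fell. C3ar1, the receptor of the fragment C3a, was at 8.09, 6.45 and 5.74 CPM after saline and 16.6, 38.9 and 19.8 CPM after PG 1100 (log2 fold change 1.89 ± 0.31, adjusted p = 9.69e-05). Clu, the complement inhibitor clusterin, was at 157, 144 and 136 CPM and 268, 420.1 and 269 CPM (log2 fold change 1.13 ± 0.15, adjusted p = 2.76e-06). Of 26 CC chemokines and receptors 6 rose and 1 fell (median 0.68). Ccl6, a macrophage chemokine (chromosome 11, 83587882 to 83593087), was at 323, 540.3 and 512 CPM and 1297, 1832 and 1022 CPM (log2 fold change 1.59 ± 0.19, adjusted p = 8.17e-07), and its close relative Ccl9 rose by 1.49 ± 0.24. Neither gene overlapped between groups. In the CXC and CX3C list 2 of 23 rose and 2 fell, with 5 rising with library totals alone. Cx3cl1, fractalkine, was at 20.9, 18.99 and 25.01 CPM and 10.2, 4.32 and 9.58 CPM (log2 fold change -1.42 ± 0.26, adjusted p = 0.000212), and Cxcr4, the receptor of Cxcl12, fell by 1.11 ± 0.21.

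Of 35 cytokines and receptors 7 rose and 2 fell, with 2 rising in the 6-library fit, 3 without saline animal 8 and 4 without saline animal 6 or PG 1100 animal 28 or in the 9-library fit. Csf2ra, the receptor chain for GM-CSF, on which alveolar macrophages depend, was at 26.5, 22.2 and 17.1 CPM after saline and 60.7, 71.8 and 38.3 CPM after PG 1100 (log2 fold change 1.38 ± 0.26, adjusted p = 0.00109). Tnfrsf1b, a TNF receptor, was at 36.3, 37.7 and 24.3 CPM and 63.1, 83.7 and 47.4 CPM (log2 fold change 0.98 ± 0.18, adjusted p = 0.000397). Tnfsf10, the death ligand TRAIL, fell from 70.1, 61.1 and 65.2 CPM to 25.1, 29.5 and 41.6 CPM (log2 fold change -1.03 ± 0.17, adjusted p = 6.73e-05). Of 18 genes of antigen presentation and dendritic cells 7 rose and none fell (median 0.59), with 3 rising in the 6-library fit and 4 without saline animal 10 or in the 9-library fit. H2-DMb1, which helps load peptides on class II molecules, was at 45.4, 53.2 and 41.4 CPM and 88.1, 99.6 and 85.1 CPM (log2 fold change 0.96 ± 0.15, adjusted p = 4.47e-05), and Cd86, a costimulatory ligand, was at 0.987, 1.10 and 2.24 CPM and 8.21, 7.64 and 4.34 CPM (log2 fold change 2.21 ± 0.52, adjusted p = 0.00536).

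Of 11 type 2 and eosinophil genes tested 6 rose and none fell, with 3 rising in the 6-library or 9-library fit. The cytokines Il4, Il5 and Il13 and the eosinophil genes Epx, Prg2 and Il5ra were below the low-count filter and not tested. The count therefore says nothing of these members. Mrc1, the mannose receptor of macrophages, was at 59.4, 65.7 and 57.8 CPM and 93.5, 136 and 94.9 CPM (log2 fold change 0.83 ± 0.16, adjusted p = 0.000604), and Il33, the alarm cytokine of lung epithelium, at 56.5, 64.04 and 71.2 CPM and 61.1, 145 and 153 CPM (log2 fold change 0.91 ± 0.26, adjusted p = 0.0433). Il33 in animal 27 lay within the saline range, and the call was not made in the 6-library fit (0.072), in the 9-library fit (0.184), without saline animal 6 (0.162), without saline animal 8 (0.117), without saline animal 10 (0.0772), without PG 1100 animal 28 (0.212) and without PG 1100 animal 30 (0.153) (range 8.46e-07 to 0.212).

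Lymphocyte and granulocyte genes did not rise as groups in the lung collected after lavage. Cells removed with the lavage fluid are not covered. Of 17 B and plasma cell genes 4 fell and 1 rose (median -0.57), with 2 falling without PG 1100 animal 28 or in the 6-library fit. Vpreb3, expressed in B lineage cells, was at 18.5, 25.3 and 23.3 CPM after saline and 4.35, 6.42 and 6.68 CPM after PG 1100 (log2 fold change -1.94 ± 0.28, adjusted p = 1.08e-05). Its groups did not overlap. In the T and NK cell list 1 of 23 rose and 1 fell. In the neutrophil list 1 of 13 rose and 1 fell, and S100a8, the most abundant granule-cell transcript of that list, was at 89.9, 189.8 and 199 CPM and 77.8, 136 and 115 CPM and did not pass (log2 fold change -0.54 ± 0.38, adjusted p = 0.485). The gene of that list that rose, Lcn2, is also made by epithelium, and was at 50.9, 71.8 and 78.2 CPM and 189, 635 and 369 CPM (log2 fold change 2.57 ± 0.44, adjusted p = 0.00208), passing in all alternative fits but the 9-library fit (0.0779, range 1.93e-56 to 0.0779). Of 24 interferon-stimulated genes 2 rose and 1 fell, with 7 rising with no low-count filter.

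Some type II cell genes rose and some airway cell genes fell. Of 17 surfactant and type II cell genes 8 rose and none fell (median 0.50), with 3 rising in the 6-library fit and 5 in the 9-library fit. Napsa, the protease that processes surfactant protein B (chromosome 7, 44572380 to 44586862), was at 329, 304 and 287 CPM after saline and 596, 592 and 482 CPM after PG 1100 (log2 fold change 0.86 ± 0.14, adjusted p = 4.05e-05). Slc34a2, the phosphate carrier of type II cells, was at 616, 451 and 509 CPM and 734, 843 and 875 CPM (log2 fold change 0.64 ± 0.14, adjusted p = 0.00237), and passed in all alternative fits but the 6-library fit (0.0713, range 0.000119 to 0.0713). Sftpc, the most specific surfactant protein of these cells, was at 15804, 24473 and 20803 CPM and 19802, 33269.5 and 28166 CPM and did not pass (log2 fold change 0.41 ± 0.16, adjusted p = 0.123). Of 15 type I cell genes 1 fell and none rose. That gene, Hopx, was at 551, 777 and 718 CPM and 379, 434 and 482 CPM (log2 fold change -0.66 ± 0.15, adjusted p = 0.00327), and passed in all alternative fits but the 6-library fit (0.0685, range 0.000352 to 0.0685). Genes of the transitional state between the 2 cell types rose in 5 of 17 (median 0.56), with 2 rising in the 6-library fit, 3 without PG 1100 animal 28 or in the 9-library fit, 8 without PG 1100 animal 27, 9 with library totals alone and 10 with no low-count filter.

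In the lists of club and ciliated cells genes fell and none rose, though most members did not pass. Of 14 club cell genes 5 fell and none rose (median -0.68), with 3 falling without saline animal 8 or 10 or PG 1100 animal 27 or 28 and 9 with no low-count filter. Aox3, an aldehyde oxidase, was at 49.4, 45.8 and 51.8 CPM after saline and 25.7, 20.7 and 29.2 CPM after PG 1100 (log2 fold change -0.96 ± 0.20, adjusted p = 0.00165). Of 22 ciliated cell genes 6 fell and none rose (median -0.59), with 3 falling without PG 1100 animal 27 or 28 or in the 6-library fit. Dnaic1, an intermediate chain of the dynein that drives cilia, was at 11.2, 11.6 and 12.6 CPM and 1.45, 3.77 and 6.12 CPM (log2 fold change -1.65 ± 0.37, adjusted p = 0.00342), lowest in animal 27. Foxj1, the factor that starts the cilia programme, was at 41.4, 28.7 and 37.8 CPM and 26.7, 21.6 and 23.4 CPM, without overlap, and did not pass (log2 fold change -0.59 ± 0.20, adjusted p = 0.0627). In the goblet and mucous list 2 of 10 rose and 1 fell. Slc26a4, the anion exchanger pendrin (chromosome 12, 31519827 to 31559969), was at 1.09, 0.487 and 2.72 CPM and 9.95, 15.1 and 10.2 CPM (log2 fold change 2.98 ± 0.36, adjusted p = 1.14e-06). Agr2, a folding helper of mucins (chromosome 12, 35992907 to 36004087), was at 1.09, 0.487 and 3.11 CPM and 18.2, 8.19 and 16.5 CPM (log2 fold change 3.16 ± 0.60, adjusted p = 0.000604), lowest in animal 28. The secreted mucosal peptide Tff2 fell from 13.8, 13.9 and 14.4 CPM to 5.02, 3.65 and 5.34 CPM (log2 fold change -1.58 ± 0.38, adjusted p = 0.00881), a call not made without PG 1100 animal 28 (0.0718, range 3e-06 to 0.0718). Of 5 genes of basal, neuroendocrine and tuft cells 1 rose, the tuft cell kinase Dclk1 (log2 fold change 1.16 ± 0.27, adjusted p = 0.00538), and none fell.

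Some enzymes that metabolise foreign compounds fell. Of 24 cytochrome P450 and flavin monooxygenase genes 9 fell and none rose (median -1.04), the lowest median of the enzyme lists. Fmo1 (chromosome 1, 162829561 to 162866610) was at 141, 149 and 139.5 CPM after saline and 37.5, 55.7 and 56.2 CPM after PG 1100 (log2 fold change -1.52 ± 0.16, adjusted p = 3.5e-08). Fmo2, the main lung form, was at 274, 271 and 238 CPM and 116, 108 and 155 CPM (log2 fold change -1.04 ± 0.15, adjusted p = 5.91e-06). Cyp4b1, a P450 of club and type II cells, was at 337, 341 and 339.9 CPM and 83.6, 125 and 183 CPM (log2 fold change -1.38 ± 0.17, adjusted p = 1.96e-06), nearly the same in the 3 saline animals. Cyp2s1 fell by 1.14 ± 0.23. In each of these genes all PG 1100 animals lay below all saline animals. Of 15 carboxylesterase, paraoxonase and epoxide hydrolase genes 5 fell and none rose (median -0.61), with 3 falling in the 6-library fit. Ephx1, microsomal epoxide hydrolase, was at 96.8, 90.9 and 97.6 CPM and 58.6, 61.8 and 61.5 CPM (log2 fold change -0.65 ± 0.14, adjusted p = 0.00177). The summed level of markers of club cells, in which several of these enzymes are made, was 59359 to 81787 CPM after saline and 27198 to 41842 CPM after PG 1100, and its part in the result was not tested. That sum rests heavily on Scgb1a1, at 20730 to 62600 CPM over all 21 libraries. The club cell list also shares members, such as Aox3, with the P450 and flavin monooxygenase list.

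Of 22 alcohol, aldehyde and lactate enzymes, the family that handles PG, 3 fell and 1 rose. Aldh1a1, the retinal and aldehyde dehydrogenase (chromosome 19, 20492715 to 20643465), was at 676, 876 and 1027 CPM after saline and 334, 361 and 639 CPM after PG 1100 (log2 fold change -0.95 ± 0.17, adjusted p = 0.000336). Animal 30 was the nearest to the saline range. Aldh3a1 was at 29.5, 27.6 and 40.3 CPM and 16.4, 6.09 and 20.3 CPM (log2 fold change -1.19 ± 0.26, adjusted p = 0.00345). Ldha, which interconverts pyruvate and lactate, rose from 82.6, 106 and 109.6 CPM to 153, 238 and 172 CPM (log2 fold change 0.92 ± 0.15, adjusted p = 5.82e-05). In all 3 genes the groups did not overlap.

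Antioxidant genes moved in both directions: of 35 NRF2 target, glutathione and antioxidant genes, 5 rose and 4 fell, with 0 rising in the 6-library fit, 2 in the 9-library fit, 3 without PG 1100 animal 28 or 30 or by limma-voom, 8 with library totals alone and 9 without PG 1100 animal 27, and with 7 falling without saline animal 6. Those that fell were led by glutathione transferases. Gsta3 (chromosome 1, 21240589 to 21265661) was at 178, 220.0 and 252 CPM after saline and 62.3, 52.4 and 109 CPM after PG 1100 (log2 fold change -1.54 ± 0.18, adjusted p = 5.93e-07), and its relative Gstm1 at 372, 372 and 409.9 CPM and 194, 169 and 219.8 CPM (log2 fold change -0.99 ± 0.14, adjusted p = 1.22e-05). Hmox1, the haem-degrading enzyme, was at 4.54, 6.82 and 7.98 CPM and 8.31, 32.3 and 56.9 CPM (log2 fold change 2.33 ± 0.46, adjusted p = 0.00208), so that animal 27 stood just above the highest saline animal and animals 28 and 30 far above it. Hmox1 did not pass in the 6-library fit (0.138) and in the 9-library fit (0.0692), in a range of 1.94e-12 to 0.138. Of 22 osmolyte carrier, aquaporin and ion transport genes 2 rose and 4 fell, with 1 falling without PG 1100 animal 28, in the 6-library or 9-library fit or with library totals alone and 2 without saline animal 8 or 10. Nfat5, the factor that responds to osmotic stress, was at 47.9, 46.6 and 42.9 CPM and 29.2, 26.02 and 23.4 CPM (log2 fold change -0.80 ± 0.18, adjusted p = 0.00257), without overlap.

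Some genes of lipid metabolism and glycolysis changed. Of 32 fatty acid genes 4 rose and 2 fell, with 2 rising in the 6-library fit. Elovl1, which lengthens fatty acids, was at 215, 270.2 and 231 CPM after saline and 365, 545 and 531 CPM after PG 1100 (log2 fold change 1.01 ± 0.15, adjusted p = 2.18e-05). Outside this list G0s2, an inhibitor of fat breakdown, fell from 65.02, 78.6 and 82.8 CPM to 37.8, 33.1 and 32.8 CPM (log2 fold change -1.13 ± 0.16, adjusted p = 4.75e-06). Of 26 cholesterol genes 4 rose and 1 fell (median 0.42), with 1 rising without PG 1100 animal 28, 2 without saline animal 6 or in the 6-library fit and 7 without PG 1100 animal 27. Its Pmvk, a kinase of the mevalonate pathway, was at 15.7, 17.3 and 21.9 CPM and 31.2, 31.4 and 37.3 CPM (log2 fold change 0.86 ± 0.21, adjusted p = 0.00558). Of 27 genes of glycolysis and hypoxia 8 rose and 1 fell (median 0.39), with 1 rising in the 6-library fit, 3 without PG 1100 animal 28, 4 without saline animal 8 or PG 1100 animal 27 or in the 9-library fit and 5 without saline animal 6. Of 78 respiratory chain subunits 3 rose (3.85%) and 1 fell (1.28%), below the 4.09% and 3.23% of all tested genes. Without saline animal 10 or PG 1100 animal 28, or in the 6-library or 9-library fit, 0 of these subunits rose. With library totals alone 10 rose. Of 79 ribosomal proteins 1 rose (1.27%).

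Many genes of mitosis rose, and most were highest in animal 28. Of 32 tested, 17 rose and none fell (median 1.48), with 2 rising without PG 1100 animal 28, 5 without saline animal 8, 7 without saline animal 10 or in the 9-library fit and 8 in the 6-library fit. The median deviation of the list from the saline mean was 1.02, 2.39 and 0.80 on the log2 scale in animals 27, 28 and 30, and 0.21, 0.17 and -0.30 in saline animals 6, 8 and 10. Cdk1, the kinase that starts mitosis (chromosome 10, 69335146 to 69352938), was at 8.19, 11.4 and 6.32 CPM after saline and 27.4, 81.5 and 25.5 CPM after PG 1100 (log2 fold change 2.38 ± 0.47, adjusted p = 0.00431). Ncapg, a condensin subunit, was at 0.888, 0.974 and 0 CPM and 2.61, 11.96 and 4.01 CPM (log2 fold change 3.33 ± 0.64, adjusted p = 0.000604). Both passed in all 14 alternative fits. Cdc20, which triggers the separation of chromosomes, was at 8.09, 5.48 and 6.23 CPM and 12.6, 27.9 and 13.2 CPM (log2 fold change 1.43 ± 0.31, adjusted p = 0.00248), and Ccnb1, the cyclin of Cdk1, at 4.54, 4.02 and 1.95 CPM and 8.31, 24.6 and 6.79 CPM (log2 fold change 1.92 ± 0.44, adjusted p = 0.00385). Those last calls were not made without PG 1100 animal 28 (Cdc20 0.0981, range 6.14e-05 to 0.0981, and Ccnb1 0.196, range 7.56e-05 to 0.196). Of 22 genes of S phase and replication, which act before mitosis, 1 rose and none fell (median 0.42), and Mcm6, a subunit of the replicative helicase, was at 18.4, 17.9 and 10.995 CPM and 20.97, 28.3 and 24.4 CPM and did not pass (log2 fold change 0.64 ± 0.26, adjusted p = 0.131).

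**Figure D5:**
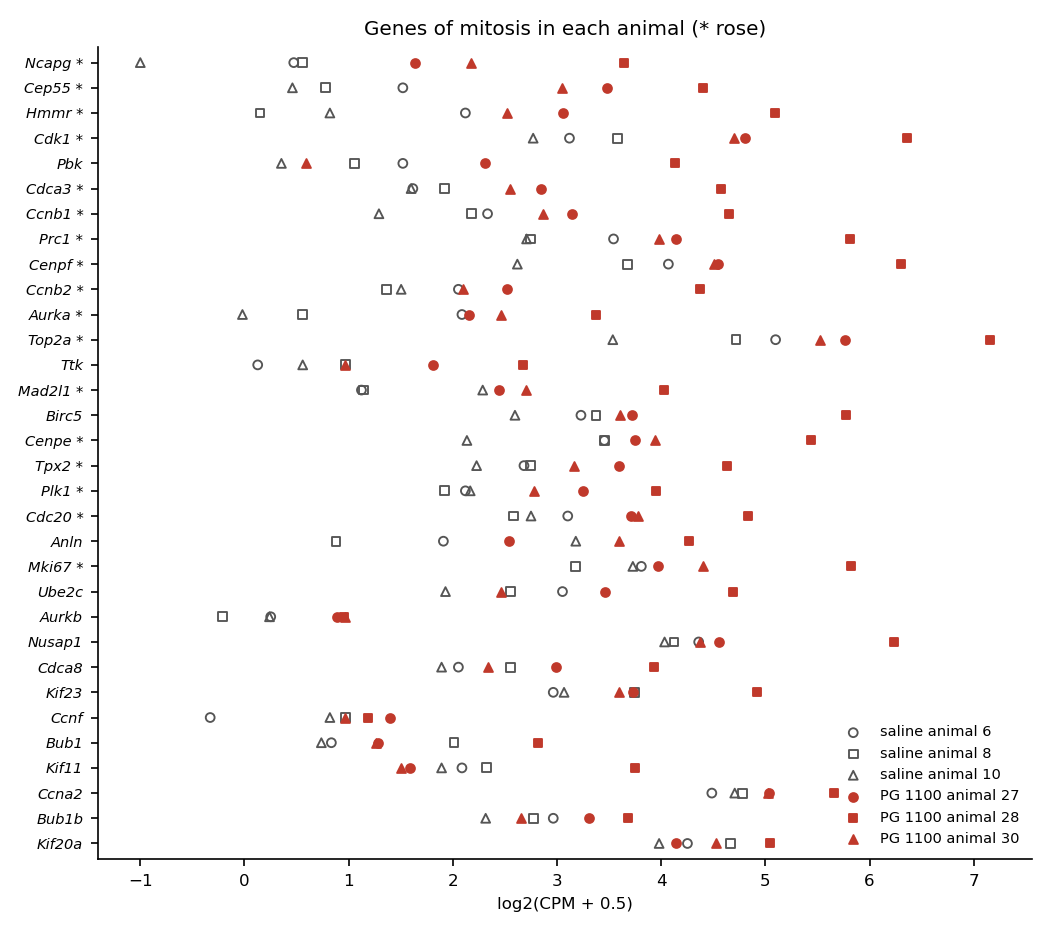
Levels of the 32 tested genes of mitosis as log2(CPM + 0.5) in the saline animals (open grey) and the PG 1100 animals (filled red), ordered by fold change, with an asterisk on the 17 that rose. Animal 28 (squares) was the highest for 30 of the 32 genes.

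Many mitosis genes carry in their promoters a short element, the cell cycle genes homology region, and near it CCAAT boxes, through which they are repressed outside division and switched on together in it. The element was searched as TTTGAA, and also in its variant form TTCGAA, on both strands, and CCAAT likewise on both strands, each without regard to the other. RefSeq windows (GRCm38.p6) of 250 bases before to 50 after the start were found for 27 of the 32 genes. The element was in the windows of 22 of them (81.5%), against 21.7% of all 27025 genes with a window and 16.6% of the 11073 tested genes with one. CCAAT was in 22 of the 27 (81.5%), against 41.1% of all genes and 42.2% of tested genes with a window. Among S phase genes 3 of 17 held the element (17.6%) and 12 CCAAT (70.6%). The element was in 13 of 16 genes of mitosis that rose and in 9 of 11 that were not called. The 150 bases before the RefSeq start are shown for 5 genes that rose, chosen because the element lies in this stretch or, in Ccnb1, because only CCAAT does. Capitals mark the element and CCAAT, each read on either strand. The stretches are at chr10:69352913-69353062 (minus strand) for Cdk1, chr5:45669775-45669924 (plus strand) for Ncapg, chr4:118437344-118437493 (minus strand) for Cdc20, chr11:99024190-99024339 (minus strand) for Top2a and chr13:100786487-100786636 (minus strand) for Ccnb1.
Cdk1: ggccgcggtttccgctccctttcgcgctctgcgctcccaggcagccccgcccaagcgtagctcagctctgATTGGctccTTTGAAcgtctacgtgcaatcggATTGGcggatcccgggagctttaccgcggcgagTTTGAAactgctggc
Ncapg: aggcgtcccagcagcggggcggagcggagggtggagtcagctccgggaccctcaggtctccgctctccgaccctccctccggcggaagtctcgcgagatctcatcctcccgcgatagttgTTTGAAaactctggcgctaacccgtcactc
Cdc20: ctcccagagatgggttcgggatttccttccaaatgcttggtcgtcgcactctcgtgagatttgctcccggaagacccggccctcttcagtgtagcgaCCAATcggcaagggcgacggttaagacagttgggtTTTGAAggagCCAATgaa
Top2a: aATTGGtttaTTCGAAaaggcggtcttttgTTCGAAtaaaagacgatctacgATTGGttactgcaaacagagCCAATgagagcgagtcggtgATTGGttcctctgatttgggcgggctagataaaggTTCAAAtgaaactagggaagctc
Ccnb1: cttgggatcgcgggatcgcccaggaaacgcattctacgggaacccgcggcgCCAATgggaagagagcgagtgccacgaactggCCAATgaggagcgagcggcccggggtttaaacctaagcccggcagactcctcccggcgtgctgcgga

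Top2a, the topoisomerase that untangles chromosomes, held the element at 3 places of the stretch shown and CCAAT at 4. It was at 33.7, 25.8 and 11.1 CPM after saline and 53.8, 142 and 45.6 CPM after PG 1100 (log2 fold change 1.77 ± 0.50, adjusted p = 0.0448), and did not pass in the 6-library fit (0.263), in the 9-library fit (0.261), without saline animal 8 (0.0979), without saline animal 10 (0.148) and without PG 1100 animal 28 (0.27), in a range of 2.03e-20 to 0.27. The low end is from the fit with no low-count filter.

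Some genes that respond within minutes to signals fell, and some genes under glucocorticoid or clock control rose. Of 25 immediate early genes 4 fell and 1 rose (median -0.33), with 7 falling without PG 1100 animal 27 and 8 with no low-count filter. Dusp1, a phosphatase that ends MAP kinase signals (chromosome 17, 26505590 to 26562128), was at 126, 109.7 and 108 CPM after saline and 40.9, 31.2 and 42.4 CPM after PG 1100 (log2 fold change -1.58 ± 0.18, adjusted p = 3.22e-07). Nr4a1, a nuclear receptor, was at 14.3, 10.96 and 12.3 CPM and 4.93, 2.66 and 5.57 CPM (log2 fold change -1.51 ± 0.33, adjusted p = 0.00245), and Fos was at 20.2, 11.8 and 17.6 CPM and 9.57, 3.88 and 13.03 CPM and did not pass (log2 fold change -0.91 ± 0.32, adjusted p = 0.085). Of 10 glucocorticoid receptor targets 4 rose and 1, Dusp1, fell. Fkbp5, a co-chaperone of steroid receptors, was at 3.16, 9.25 and 5.25 CPM and 28.02, 17.4 and 27.5 CPM (log2 fold change 2.06 ± 0.27, adjusted p = 2.43e-06). The metallothioneins, which bind zinc and copper, rose: Mt1 (chromosome 8, 94179082 to 94180327) was at 102, 111 and 166 CPM and 216, 312 and 268 CPM (log2 fold change 1.07 ± 0.15, adjusted p = 1.02e-05), and Mt2 at 36.998, 41.3 and 52.6 CPM and 140.1, 199 and 208 CPM (log2 fold change 2.06 ± 0.23, adjusted p = 2.75e-06).

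Of 17 clock genes 5 rose and none fell, with 3 rising without saline animal 8 or 10 or PG 1100 animal 27 or 28 or in the 6-library fit. Dbp was at 1.87, 4.26 and 4.57 CPM after saline and 16.4, 9.19 and 11.02 CPM after PG 1100 (log2 fold change 1.78 ± 0.34, adjusted p = 0.000483), Per1 at 5.33, 5.48 and 9.73 CPM and 24.3, 11.3 and 21.4 CPM (log2 fold change 1.47 ± 0.31, adjusted p = 0.0017), and Nr1d2 at 9.57, 14.4 and 17.6 CPM and 37.5, 30.01 and 28.7 CPM (log2 fold change 1.21 ± 0.25, adjusted p = 0.0011). These 3 genes peak near one another in the daily cycle. Arntl, which runs opposite to them, was at 15.4, 12.5 and 15.5 CPM and 7.34, 8.31 and 9.91 CPM, lower without overlap, and did not pass (log2 fold change -0.77 ± 0.32, adjusted p = 0.153). The hour of death is not given in the sources used here, and its part in the result was not tested. Of 26 genes of the endoplasmic reticulum and integrated stress response none passed in the edgeR fit over all libraries or in DESeq2, with 3 higher and 3 lower at an unadjusted p below 0.05. Of 38 proteasome subunits none passed in the edgeR fit over all libraries, with 3 rising by DESeq2, 7 without PG 1100 animal 27 and 10 with library totals alone, and 9 were higher and 0 lower at an unadjusted p below 0.05.

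Some of the largest changes fell outside these groups. Lrg1, a secreted glycoprotein that modulates TGF-beta signals in vessels, was at 48.3, 49.4 and 70.3 CPM after saline and 355, 428 and 434 CPM after PG 1100 (log2 fold change 2.85 ± 0.34, adjusted p = 5.43e-05). Fam150a, a ligand of the receptor ALK, was at 0.395, 0.852 and 2.34 CPM and 7.63, 11.5 and 12.02 CPM (log2 fold change 3.09 ± 0.51, adjusted p = 6.13e-05). Ntrk2, the neurotrophin receptor TrkB, was at 3.26, 7.55 and 7.69 CPM and 80.2, 36.7 and 11.6 CPM (log2 fold change 2.80 ± 0.61, adjusted p = 0.00886), spread widely over the PG 1100 animals, and did not pass in the 6-library fit (0.186) and in the 9-library fit (0.057) (range 1.07e-17 to 0.186). Hpgd, which breaks down prostaglandins, fell from 269, 249 and 243 CPM to 52.6, 39.3 and 108 CPM (log2 fold change -1.93 ± 0.43, adjusted p = 0.0118), a call not made without PG 1100 animal 28 (0.0718, range 1.41e-32 to 0.0718). Synm, the intermediate filament synemin, fell from 127, 95.7 and 86.8 CPM to 49.2, 31.2 and 40.3 CPM (log2 fold change -1.36 ± 0.16, adjusted p = 4.49e-07). Ackr4, a chemokine scavenging receptor, fell by 1.88 ± 0.44, and Slc5a12, a lactate carrier, fell by 1.88 ± 0.39. None of these overlapped between the groups.

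Markers of blood also differed, while most markers of tissue around the lung did not pass. The part of these markers in the results was not tested. Of 12 erythroid genes 9 fell and none rose, with 2 falling without PG 1100 animal 28, 3 without saline animal 8 or PG 1100 animal 30 and 4 without PG 1100 animal 27, and their summed level was 63608 to 162977 CPM after saline and 45765 to 52395 CPM after PG 1100. In a fit without haemoglobin and Rn45s 614 genes rose and 462 fell. Of 13 heart and skeletal muscle genes 1 fell, with 4 falling by limma-voom, 7 in the 6-library or 9-library fit and 10 with no low-count filter, and the list had summed levels of 312 to 451 CPM and 169 to 253 CPM. In the mesothelium list of 7 none passed in the edgeR fit over all libraries, 2 did in the 6-library fit, 2 in the 9-library fit and 2 by DESeq2, all lower, and 4 were lower at an unadjusted p below 0.05. Its summed level was 118 to 171 CPM and 86.1 to 127 CPM.

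To see where the higher dose differed from the lower, PG 1100 was compared with PG 826, with animals 22, 23 and 25. Of the same 14727 genes 419 were higher (2.85%) and 399 lower (2.71%) at the higher dose, 5.55% in all, and 169 were higher and 173 lower without PG 826 animal 25. Without PG 1100 animal 28 the numbers were 127 and 132, without animal 27 they were 727 and 731, in the 6 libraries compared 212 and 213, and in the 9-library fit 177 and 194. The comparisons with saline and with PG 826 share the PG 1100 animals, so their values are given side by side. C1qa was at 31.99, 39.9 and 35.6 CPM after PG 826, and PG 1100 was higher by 1.13 ± 0.16, adjusted p = 2.47e-05. Col3a1 was at 341, 271 and 343 CPM after PG 826, higher at 1100 by 1.09 ± 0.16, adjusted p = 1.86e-05. Sox11 was at 40.6, 43.2 and 53.6 CPM, between the saline and PG 1100 values, and lower at 1100 (-1.71 ± 0.19, adjusted p = 4.21e-07). Klf2 was at 138, 159 and 228 CPM (-0.97 ± 0.21, adjusted p = 0.00469) and Inmt at 1533, 1649 and 2054 CPM (-1.001 ± 0.14, adjusted p = 2.07e-05). For these 5 genes the PG 826 mean was nearer to the saline mean than to that of PG 1100.

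For other genes the PG 826 levels lay near those of PG 1100. Fkbp5 was at 26.4, 18.4 and 27.2 CPM after PG 826, and the difference to PG 1100 was 0.02 ± 0.25, adjusted p = 0.985. Per1 was at 26.2, 20.8 and 23.2 CPM (-0.30 ± 0.29, adjusted p = 0.677) and Dbp at 14.4, 16.96 and 10.4 CPM (-0.19 ± 0.31, adjusted p = 0.838). Vpreb3 was at 7.56, 11.2 and 5.31 CPM (-0.48 ± 0.29, adjusted p = 0.415). None of these 4 passed between the doses, which does not show that the doses act alike. In the pan-endothelial list 11 of 18 genes were lower at 1100 than at 826, and in the mitosis list 11 of 32 were higher. In the fibrillar collagen list 5 of 7 were higher, and in the glucocorticoid list of 10 genes 2 were higher and 2 lower (median -0.16).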

How the data were processed

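Whole lung RNA was measured by 3-prime sequencing (Lexogen QuantSeq, per the labels' protocols), with 1 library per animal. The deposited values are the authors' raw counts per gene symbol. Bowtie2, bedtools and the mm10 build are named in the submitters' processing notes, without versions. The annotation used for counting is not given in the sources used here. Rows of the same symbol were summed, which left 23238 symbols. All 21 libraries of 7 groups were fitted together with edgeR 4.0.16 (R 4.3.3), with TMM scaling, the filterByExpr filter by group, robust quasi-likelihood dispersion with 14 residual degrees of freedom, and Benjamini-Hochberg adjustment over 14727 symbols. Calls were made at an adjusted p below 0.05. The low-count filter keeps genes high in 1 group, so a list's tested members are not all of its members. Alternatives used DESeq2 1.42.0, limma-voom (limma 3.58.1), other scalings, no filter, fewer libraries, and each animal left out. The procedure was tested on simulated data. Depth was 8778028 to 11783151 counts, and replicate libraries differed by more than counting noise (chi-square per degree of freedom 11.2 to 40.5), so none was merged.

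The members and the gene lists were chosen with earlier results of these data known. Genes were named by rule: the largest changes among called genes of at least 5 CPM without overlap, the smallest p in each direction, the largest differences in CPM, up to 8 members of each list with the smallest p or a defining role, and the called genes that varied most among PG 1100 animals. Some genes are not reported here. Gene positions are from GENCODE M21 and promoters from RefSeq, both GRCm38, the assembly mm10 is built on. Their annotated starts can differ, so a promoter stretch can overlap the printed span of its gene.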

Additional observations from a re-analysis of the deposited data

How the results depend on the processing

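For PG 1100 against saline 1077 genes were called. With only the 6 libraries of the comparison fitted, 444 were called (259 higher, 185 lower), and with the 9 saline and PG libraries 672 (368 higher, 304 lower). A fold of at least 1 on the log2 scale left 477 (306 higher, 171 lower), and library totals alone gave 1054 higher and 246 lower. Leaving out 1 animal gave 547 to 1207 genes, of which 326 to 671 were higher and 221 to 536 lower. The lowest values were those without PG 1100 animal 28. RLE size factors, DESeq2, limma-voom, no low-count filter and the fit without Rn45s and haemoglobin gave 968 to 1343 genes. For PG 1100 against PG 826 818 genes were called. The 6 libraries compared gave 425 (212 higher, 213 lower), the 9 libraries 371 (177 higher, 194 lower), and a fold of at least 1 left 268 (167 higher, 101 lower). Leaving out 1 animal gave 259 to 1458 genes, of which 127 to 727 were higher and 132 to 731 lower. The fits of fewer libraries have fewer samples to estimate the spread from, and the cause of the other shifts was not tested. Of all 1077 called genes, 335 (198 that rose and 137 that fell) passed in every alternative fit that gave them a value. Among the 139 called genes given with values, many named for a small p or a large change, 119 passed in all 14 alternative fits and none changed sign. For 14 of the 20 genes that lost a call, the lowest adjusted p came from the fit with no low-count filter. Acta2, which did not pass, did so in 6 fits, among them the 6-library fit (adjusted p = 0.0197, edgeR), in a range of 7.44e-07 to 0.198. Fos, Foxj1, Igf1r, S100a8 and Sftpc passed in 1 to 3 fits each. No paired analysis was possible because the animal numbers differ between the groups. In saline animal 8 a level of 5 CPM is 41.1 counts, the fewest of the libraries, so genes of 1 or 2 CPM rest on few counts.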
